A study of Mus musculus with 8 samples.

Results

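The genes described here encode the condensin complexes and the core of the Smc5/6 complex, which were measured in mouse embryonic stem cells (ESCs) after knock-down of Rad21. They are the 10 genes Smc2, Smc4, Ncapd2, Ncapd3, Ncapg, Ncapg2, Ncaph, Ncaph2, Smc5 and Smc6, chosen by name, and all 10 were measured among the 18193 genes on the array. A probe set, the group of short probes that measures a transcript, was taken for a gene when the platform annotation gave it that gene's symbol and no other. This gave 30 of 45037 probe sets, and the probe set with the highest mean over all arrays, called the brightest below, stood for its gene.

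Condensins and Smc5/6 belong, with cohesin, to the SMC (structural maintenance of chromosomes) complexes, large rings that hold or move DNA with energy from ATP. Condensin I and condensin II share the Smc2 and Smc4 core and differ in their other subunits, Ncapd2, Ncapg and Ncaph in condensin I and Ncapd3, Ncapg2 and Ncaph2 in condensin II. Both fold chromosomes into compact mitotic bodies, condensin II from within the nucleus and condensin I after the nuclear envelope has broken down. Smc5 and Smc6 form the core of the third complex, known for its work in DNA repair by recombination and at stalled replication forks. Embryonic stem cells divide fast and depend on these complexes as they do so.

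The study examined the role of the cohesin ring subunit RAD21 in ESC identity, with experiments on DNA binding and protein interaction among others. The arrays described here are its measure of gene expression after RAD21 depletion. R1/E cells, a mouse ESC line grown without feeder cells on gelatin with LIF, were transfected for 48 h in wells of 80000 cells with 800 ng of esiRNA, a mixture of short interfering RNAs cut by an enzyme from a longer double-stranded RNA. The Rad21 knock-down group received esiRNA against Rad21 and the Luc control group received esiRNA against luciferase, a gene that mouse cells lack. Each group had 4 arrays, which the labels call biological replicates, and no genetic change was made to the cells of either group. Values are GCRMA values on the log2 scale, in which 1 unit is a doubling, and a change is the mean of the knock-down arrays minus that of the control arrays. Precision is limited by the number of arrays. The array medians ran from 3.08 to 3.16. Rad21, the targeted gene, fell at each of its 3 probe sets. Its brightest probe set went from 13.67 ± 0.19 to 12.08 ± 0.43 (SD, n = 4), a change of -1.58 ± 0.21 (SE, adjusted p = 0.00222), and the others changed by -0.98 and -2.59. RNA of the target was therefore reduced to 33.4% of the control at the brightest probe set and was not removed.

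The labelled cell type was checked against fixed markers. The 7 ESC markers Pou5f1, Nanog, Sox2, Zfp42, Esrrb, Dppa5a and Tdgf1 were bright in both groups, with means from 11.78 to 15.90 in the control and from 10.35 to 15.70 in the knock-down. Of these, 5 fell and 2, Sox2 and Tdgf1, were not called, and the log2 of their summed level ran from 17.62 to 17.67 in the control and from 17.36 to 17.41 in the knock-down. The 7 fibroblast markers Col1a1, Col1a2, Col3a1, Thy1, Postn, Dcn and Lum had means from 2.33 to 4.53 in the control and from 2.32 to 3.96 in the knock-down, and 5 of them were under 4 on all 8 arrays. Their summed level ran from 5.89 to 6.01 and from 5.82 to 6.14 on the log2 scale, and Thy1 alone was called, with a change of -0.56 (adjusted p = 0.0248, and up to 0.0709 without control replicate 2, 3 or 4 or knock-down replicate 1). Col3a1 differed by 0.80 in the other direction and was not called (95% confidence interval 0.03 to 1.57, adjusted p = 0.189). It differed by 1.35 within replicates 1 and 2, where it was called (adjusted p = 0.0127), and by 0.25 within replicates 3 and 4. Since earlier results of these data had set replicates 1 and 2 apart from replicates 3 and 4, and no batch is named, the change within each of these replicate sets is given where it bears on a value.

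RefSeq promoter windows, each of 300 bases from 250 before to 50 after a transcript start on GRCm38.p6, were at hand for 9 of the 10 members. They are of interest because many mitotic genes carry a CHR (cell cycle genes homology region), searched here as TTTGAA on either strand, and a CCAAT box, searched as CCAAT on either strand. The letters of the CHR stood in 6 of 10 member windows, those of Ncapd2, Ncapd3, Ncapg, Ncapg2, Smc2 and Smc6, against 17.9% of all 32851 windows. Only for Smc2 and Smc6 did a full match lie before the annotated gene. For Ncapg and Ncapg2 no full match lay there, and the Ncapd2 window lay inside the gene. The Ncapd3 match stood in a window inside the gene, while the window at its gene start held none. CCAAT stood in 3 member windows, those of Ncapd2, Ncapg and Smc2, against 37.4% of all windows. A match describes letters and does not show that a factor binds. The 250 bases before the start are shown for the SMC core genes Smc2, which holds both motifs, and Smc6, which holds the CHR alone. Capitals mark the motifs, with the CHR read from the opposite strand as TTCAAA in both. The sequences are written 5′ to 3′ on the plus strand.
Smc2, GRCm38.p6 chr4:52438971-52439220: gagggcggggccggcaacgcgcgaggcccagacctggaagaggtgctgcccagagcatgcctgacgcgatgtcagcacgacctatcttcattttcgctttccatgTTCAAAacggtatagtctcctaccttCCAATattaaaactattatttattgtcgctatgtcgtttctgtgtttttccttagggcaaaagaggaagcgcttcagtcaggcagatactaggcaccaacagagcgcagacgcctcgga
Smc6, GRCm38.p6 chr12:11265636-11265885: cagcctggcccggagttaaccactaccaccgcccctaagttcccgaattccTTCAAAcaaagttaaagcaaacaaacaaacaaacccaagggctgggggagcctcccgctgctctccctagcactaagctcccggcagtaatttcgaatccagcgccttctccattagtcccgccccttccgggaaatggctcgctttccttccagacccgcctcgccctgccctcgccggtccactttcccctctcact

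Across the 10 members 1 gene rose, Ncapg2 of condensin II, and 1 gene fell, Smc5. The other 8 were not called at an adjusted p under 0.05 by limma, and 4 of these had positive and 4 negative differences. Over all genes, dim ones included, 10.1% rose and 12.6% fell, and the number of members called was near that share. The array medians were 3.08 to 3.16, whereas only 2 of the 30 member probe sets had a mean under 4. The shares over all genes or probe sets given here therefore do not describe genes as bright as the members. Among probe sets with a mean of at least 4 alone, 7645 were called in place of 6697, with the same 2 members. The median change of the members was 0.02, beside 0.003 over all genes, and the median absolute change was 0.13, beside 0.085. At the level of probe sets 3 of 30 were called, of which 2 fell and 1 rose, while 14.9% of all probe sets were called. The values of the groups did not overlap at 4 of the 30 member probe sets, and 19.4% of all probe sets had groups that did not overlap. Of the 10 members 1, Smc5, had a change of at least 0.5 in size at its brightest probe set, as did 12.5% of all genes. No other member probe set had a change of that size.

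**Figure D1:**
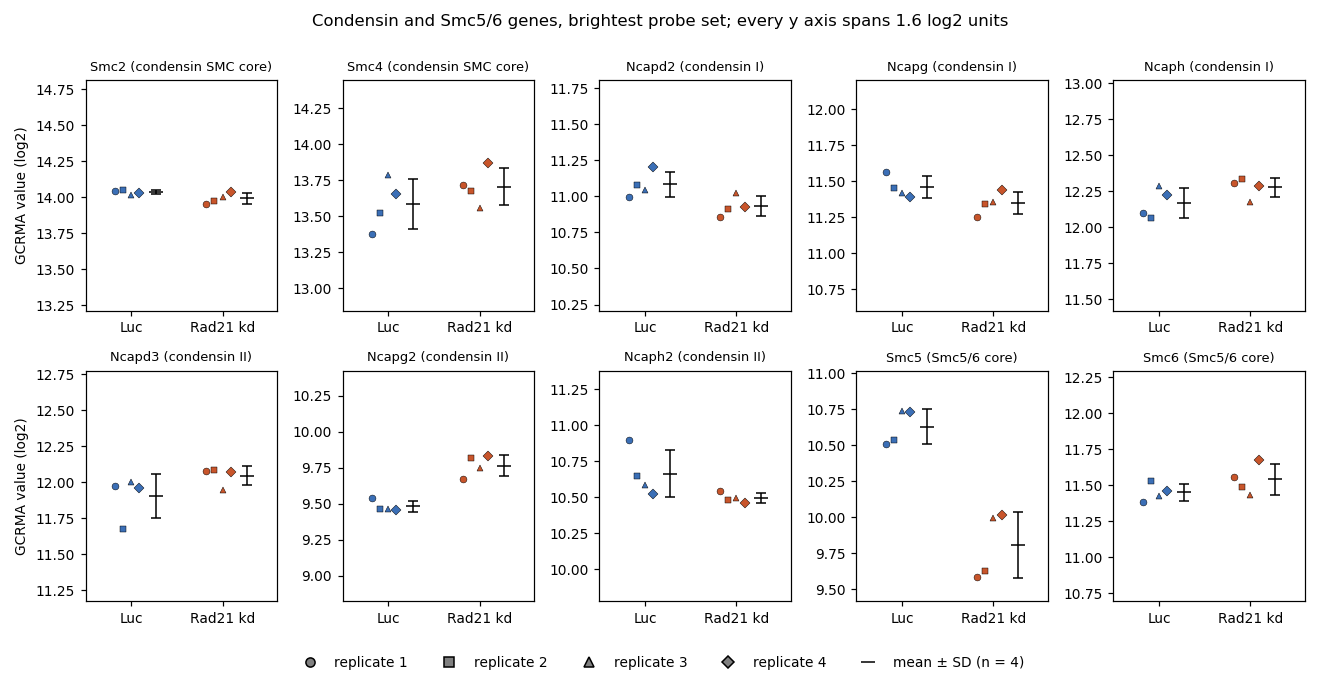
GCRMA value (log2) of each member's brightest probe set on the 4 Luc control and 4 Rad21 knock-down (kd) arrays, with the mean and SD of each group beside the points. Every axis spans 1.6 log2 units. The groups are apart for Smc5, from 10.50 to 10.74 against 9.59 to 10.02, and for Ncapg2, from 9.46 to 9.54 against 9.67 to 9.83, and overlap for the other 8 genes.

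Smc5, which pairs with Smc6 in the repair complex, showed the largest change of any member. Its brightest probe set, 1426271_at, read 10.50, 10.54, 10.74 and 10.73 on control arrays 1 to 4 and 9.59, 9.63, 9.99 and 10.02 on knock-down arrays 1 to 4. Every knock-down array lay below every control array, and in both groups replicates 1 and 2 lay below replicates 3 and 4. The mean went from 10.63 ± 0.12 to 9.81 ± 0.23 (SD, n = 4), which is 56.5% of the control level. Smc5 fell by 0.82 ± 0.12 (SE, 95% confidence interval -1.10 to -0.55, adjusted p = 0.00319). The change was -0.92 within replicates 1 and 2 and -0.73 within replicates 3 and 4, each called on its own (adjusted p = 0.00284 and 0.00597), and the difference between these sets was not called (adjusted p = 0.149).

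The second Smc5 probe set, 1426270_at, read 9.95, 9.80, 10.08 and 10.02 on the control arrays. On the knock-down arrays it read 9.83, 9.87, 9.89 and 9.94. These groups overlapped, and the change was -0.08 ± 0.06 (95% confidence interval -0.21 to 0.06, adjusted p = 0.570), an interval that does not reach that of the first probe set. As a description chosen after these values were seen, the first probe set minus the second lay between 0.56 and 0.74 on the control arrays and between -0.24 and 0.10 on the knock-down arrays. The files do not give where on the Smc5 transcript either probe set lies, so which transcripts they measure was not tested. The fall of Smc5 is thus a result of 1 of its 2 probe sets. In RNA from a whole culture, fewer cells of a type and less RNA per cell cannot be told apart, here and in every change below.

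Smc6, the partner of Smc5, was measured by 6 probe sets, the most of any member, and they differed in sign. The brightest, 1422910_s_at, read 11.38, 11.53, 11.43 and 11.46 in the control and 11.56, 11.49, 11.43 and 11.68 in the knock-down. The groups overlapped, and the change was 0.09 ± 0.06 (95% confidence interval -0.04 to 0.22, adjusted p = 0.460). The next brightest, 1448828_at, read 10.34, 10.30, 10.22 and 10.33 in the control and 10.03, 10.01, 10.19 and 10.16 in the knock-down. All 4 knock-down arrays lay below all 4 control arrays, though the third control and the third knock-down array were close. This probe set fell by 0.20 ± 0.05, from 10.30 ± 0.05 to 10.10 ± 0.09 (adjusted p = 0.0313).

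The call at this Smc6 probe set was lost when control replicate 1, 2 or 4 or knock-down replicate 1 or 2 was left out, with an adjusted p of up to 0.0859, and in an analysis of variance without moderated variances (adjusted p = 0.0649). The change was -0.30 within replicates 1 and 2 (adjusted p = 0.0229) and -0.10 within replicates 3 and 4 (adjusted p = 0.320). The remaining 4 probe sets of Smc6 were not called. Their changes were -0.36 for 1417736_at, whose interval ran from -0.70 to -0.02, 0.14 for 1448829_at, -0.10 for 1422909_at and -0.08 for 1460069_at, which had means under 4 in both groups.

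**Figure D2:**
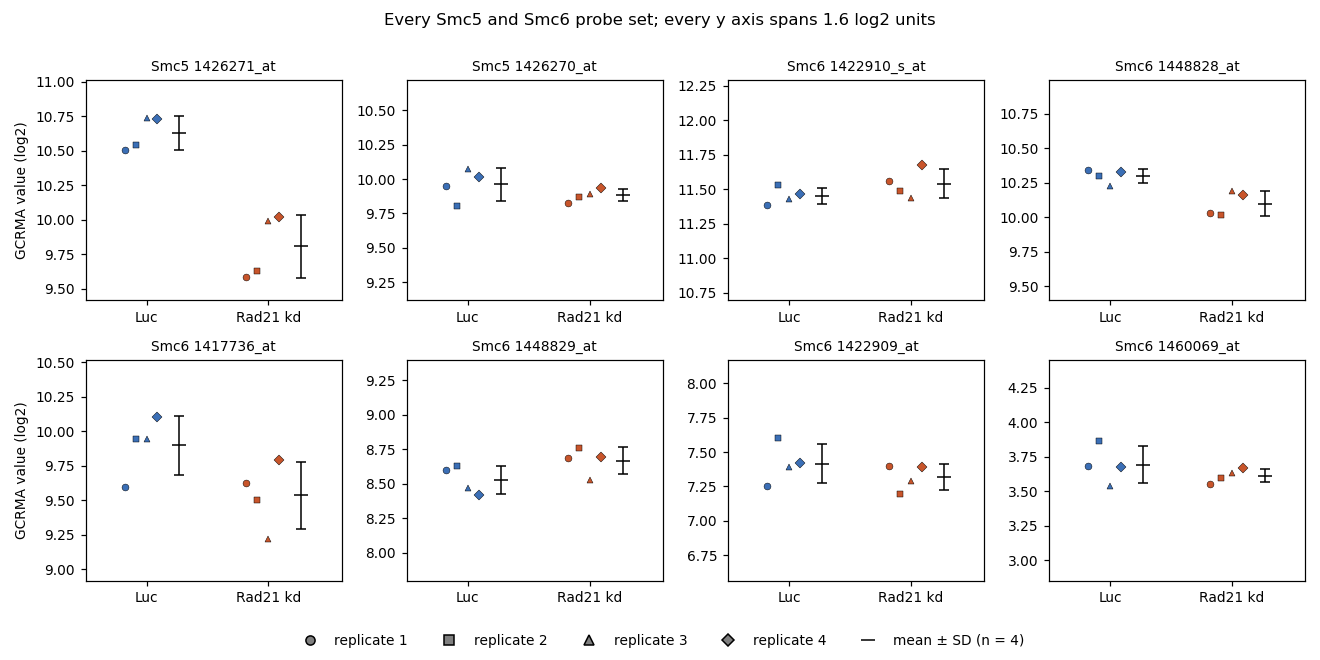
GCRMA value (log2) at every Smc5 and Smc6 probe set on the 4 Luc control and 4 Rad21 knock-down (kd) arrays, with the mean and SD of each group. Every axis spans 1.6 log2 units. The groups are apart at Smc5 1426271_at, with a change of -0.82, and at Smc6 1448828_at, with a change of -0.20, and overlap at the other 6 probe sets.

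The further subunits of the Smc5/6 complex and the Slf proteins that recruit it are given by a list of 7 genes, all of them measured. In this list 1 gene rose, 1 fell and 5 were not called, and the median change was -0.09. Nsmce1, the RING-finger subunit, read 11.21, 11.18, 11.19 and 11.03 in the control and 10.86, 10.86, 10.87 and 10.92 in the knock-down. The groups were apart, and Nsmce1 fell by 0.28 ± 0.04 (adjusted p = 0.00368). A second Nsmce1 probe set fell by 0.34 ± 0.06 (adjusted p = 0.00756), and the dimmest one, with means of 2.29 and 2.30, did not pass the test. Within the replicate sets Nsmce1 changed by -0.33 (adjusted p = 0.0168) and by -0.22 (adjusted p = 0.186).

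Slf1, which links Smc5/6 to sites of DNA damage, read 8.35, 8.42, 8.34 and 8.54 in the control and 8.64, 8.65, 8.75 and 8.75 in the knock-down. Slf1 rose by 0.29 ± 0.05 (adjusted p = 0.00836), with no overlap between the groups, and its dimmer probe set differed by 0.40 ± 0.15 (adjusted p = 0.138). Within replicates 1 and 2 the brightest changed by 0.26 (adjusted p = 0.0386) and the dimmer by 0.70 (adjusted p = 0.0131). Within replicates 3 and 4 these changes were 0.31 and 0.10, neither of them called (adjusted p = 0.132 and 0.768). Nsmce4a, a kleisin-like subunit, differed by -0.17 (95% confidence interval -0.27 to -0.06) and Nsmce3 by -0.18 (95% confidence interval -0.39 to 0.02), neither of them called. Nsmce2, the SUMO ligase of the complex, differed by -0.07 and Slf2 by -0.09. Eid3, a relative of Nsmce4a known from the testis, had means of 2.56 and 2.57, near the lowest values on the arrays.

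Smc2 and Smc4 form the core that both condensins share, and neither was called. Smc2 read from 14.02 to 14.05 in the control and from 13.96 to 14.04 in the knock-down at its brightest probe set. Its change of -0.04 ± 0.02 had an interval from -0.10 to 0.01 (adjusted p = 0.342), the narrowest interval among the brightest probe sets. The other 4 Smc2 probe sets changed by -0.02 to -0.22, all with intervals that include 0, so all 5 had the same sign. Smc4 read from 13.38 to 13.79 in the control and from 13.56 to 13.87 in the knock-down, a change of 0.12 ± 0.10 (95% confidence interval -0.11 to 0.35, adjusted p = 0.619). This interval allows a rise of up to 0.35, so a small change of Smc4 cannot be told from none with these arrays. Its other probe sets changed by 0.10 and by less than 0.01 in size.

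The condensin I subunits were not called either. Ncapd2, a HEAT-repeat subunit, read 11.00, 11.08, 11.05 and 11.21 in the control and 10.86, 10.91, 11.03 and 10.93 in the knock-down. Only the third knock-down array lay within the control range. The change of Ncapd2 was -0.15 ± 0.05 with an interval from -0.28 to -0.03, which excludes 0 before adjustment over all probe sets and not after it (adjusted p = 0.116). Its dimmer probe set gave -0.03.

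Ncapg, the other HEAT-repeat subunit of condensin I, read from 11.39 to 11.56 in the control and from 11.25 to 11.44 in the knock-down. It changed by -0.11 ± 0.05 (95% confidence interval -0.23 to 0.01, adjusted p = 0.245), and by -0.24 ± 0.20 at its second probe set. Ncaph, the kleisin that closes the condensin I ring, gave 0.11 ± 0.06 at its brightest probe set (95% confidence interval -0.03 to 0.24, adjusted p = 0.339) and -0.12 ± 0.06 at the other one (adjusted p = 0.323). Within replicates 1 and 2 the first of these was 0.24 and was called (adjusted p = 0.0395), and within replicates 3 and 4 it was -0.02. The difference between the sets was not called (adjusted p = 0.185).

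Among the condensin II subunits Ncapg2 rose. Its single probe set, 1417926_at, read 9.54, 9.47, 9.47 and 9.46 on the control arrays and 9.67, 9.82, 9.75 and 9.83 on the knock-down arrays. All 4 knock-down arrays lay above all 4 control arrays. The mean went from 9.48 ± 0.04 to 9.77 ± 0.07 (SD, n = 4), or 121.7% of the control. The change was 0.28 ± 0.04 (SE, 95% confidence interval 0.19 to 0.38, adjusted p = 0.00291). It was 0.24 within replicates 1 and 2, where the call was lost (adjusted p = 0.125), and 0.33 within replicates 3 and 4 (adjusted p = 0.0301).

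Ncapd3, the HEAT-repeat partner of Ncapg2, read 11.97, 11.67, 12.00 and 11.96 in the control and 12.08, 12.08, 11.95 and 12.07 in the knock-down. Its change was 0.14 ± 0.08 (95% confidence interval -0.04 to 0.32, adjusted p = 0.344), and its other probe sets gave -0.16 and -0.08. Ncaph2, the kleisin of condensin II, read from 10.52 to 10.90 in the control and from 10.46 to 10.54 in the knock-down, a change of -0.17 ± 0.08 (95% confidence interval -0.35 to 0.01, adjusted p = 0.237). The 1439360_x_at probe set of Ncaph2 had groups that did not overlap, from 9.21 to 9.57 against 9.09 to 9.17, and changed by -0.24 ± 0.08 without passing the test (adjusted p = 0.0998). This change was -0.40 within replicates 1 and 2 (adjusted p = 0.0244) and -0.08 within replicates 3 and 4 (adjusted p = 0.254). The last pair of Ncaph2 probe sets gave 0.05 and 0.06.

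**Figure D3:**
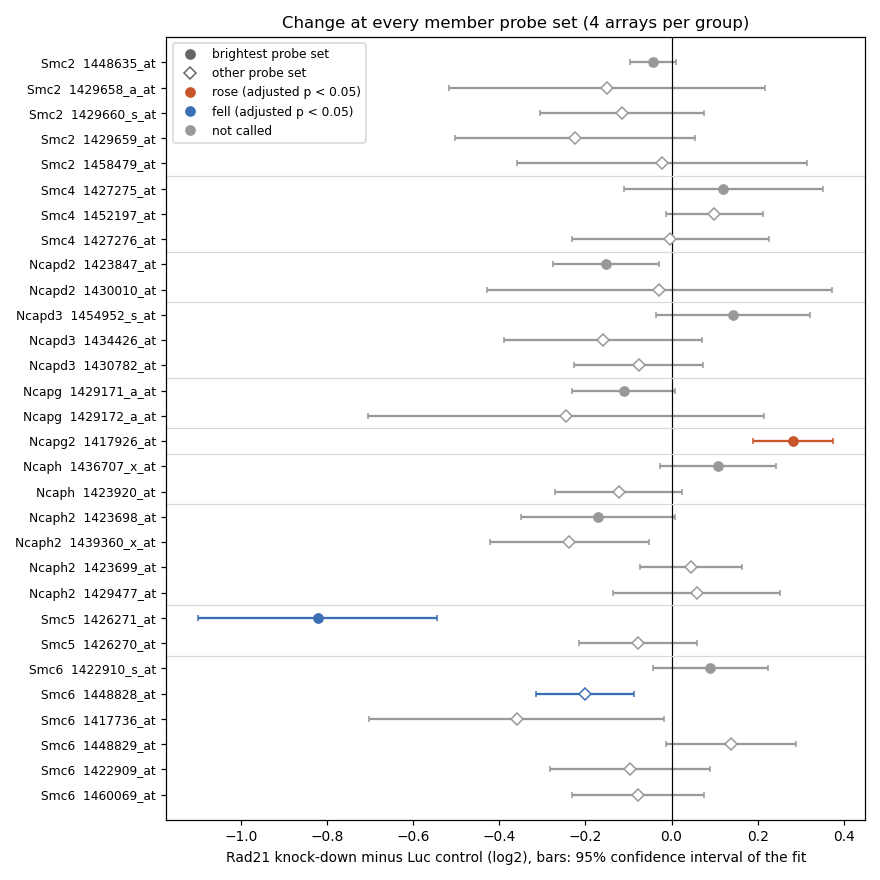
Change at each of the 30 member probe sets (knock-down minus control, log2) with the 95% confidence interval of the fit over 4 arrays per group. Filled circles are the brightest probe set of a gene, open diamonds the others, and colour marks the call at an adjusted p under 0.05. Smc5 at -0.82 and Ncapg2 at 0.28 are called at the brightest probe set and Smc6 1448828_at at -0.20 at another.

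Probe sets of one gene did not always give the same sign. Of the 9 members with more than 1 probe set, 5 had probe sets that differed in sign, Smc4, Ncapd3, Ncaph, Ncaph2 and Smc6, although in none of these were opposite signs both called. Names ending in _x_at or _s_at mark probe sets whose probes can bind transcripts of more than 1 gene or several transcripts of a family, and the brightest probe sets of Ncaph, Ncapd3 and Smc6 are of this kind. When these were left out, Ncaph and Ncapd3 were represented by probe sets with changes of -0.12 and -0.16, not called, and Smc6 by 1448828_at, so that its change turned from 0.09 to -0.20 (adjusted p = 0.0326).

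A test of the difference between the replicate sets, limma's interaction of group and replicate set, called 350 probe sets, or 0.777% of those tested, and 0 of the 30 member probe sets. Among the members 7 of 30 probe sets had an unadjusted p under 0.05 in this test, beside 5360 of all 45037. The smallest adjusted p of a member probe set was 0.130, for Ncaph2 1439360_x_at. The number called by this test was lower when any 1 array was left out, a fit that also has fewer arrays. It was 315 without Luc control replicate 1 or without knock-down replicate 2, was 82, 56 and 0 without Luc control replicates 2, 3 and 4 (4784 at an unadjusted p under 0.05 in the last case), and was 77, 22 and 62 without knock-down replicates 1, 3 and 4.

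Genes with paired roles were next compared within each array, where a shift common to the array cancels. For each pair the log2 value of one gene was taken minus that of the other, and the groups were compared by a two-sided exact permutation test over all 70 assignments of 4 arrays and 4 arrays, which cannot give a p below 0.0286, with adjustment over the 5 pairs. The size of each difference depends on the probes and says nothing of which gene was more abundant. Smc5 minus Smc6 lay between -0.99 and -0.69 on the control arrays and between -1.97 and -1.44 on the knock-down arrays. The groups were apart by 0.91 (exact p = 0.0286, adjusted p = 0.0714). At these brightest probe sets Smc5 thus stood lower relative to Smc6 on every knock-down array than on any control array. The second Smc5 probe set, which changed by -0.08, does not enter this difference. When every probe set of each gene was averaged, the difference between groups was -0.37, with an exact p of 0.0571 by the same permutation test.

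Ncapg minus Ncapg2, which sets the condensin I subunit against its condensin II paralog, was 2.02, 1.99, 1.95 and 1.93 on the control arrays and 1.58, 1.52, 1.61 and 1.61 on the knock-down arrays. The group means differed by -0.39 and the spread within either group was 0.04 (SD, n = 4; exact p = 0.0286, adjusted p = 0.0714). The other condensin I and II pairs did not follow one direction. Ncapd2 minus Ncapd3 changed by -0.30 (exact p = 0.0857, adjusted p = 0.107) and Ncaph minus Ncaph2 by 0.28 (exact p = 0.0857, adjusted p = 0.107), with overlap of the groups in both. Smc2 minus Smc4 changed by -0.16 (exact p = 0.229, adjusted p = 0.229), and this came from replicates 1 and 2, with -0.33, while replicates 3 and 4 gave less than 0.01. No pair had an adjusted p under 0.05. Smc5 minus Smc6 and Ncapg minus Ncapg2 were already at the smallest exact p possible. With the other pairs above it, 0.0714 was the lowest adjusted p open to them, so the threshold decides nothing for these pairs.

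**Figure D4:**
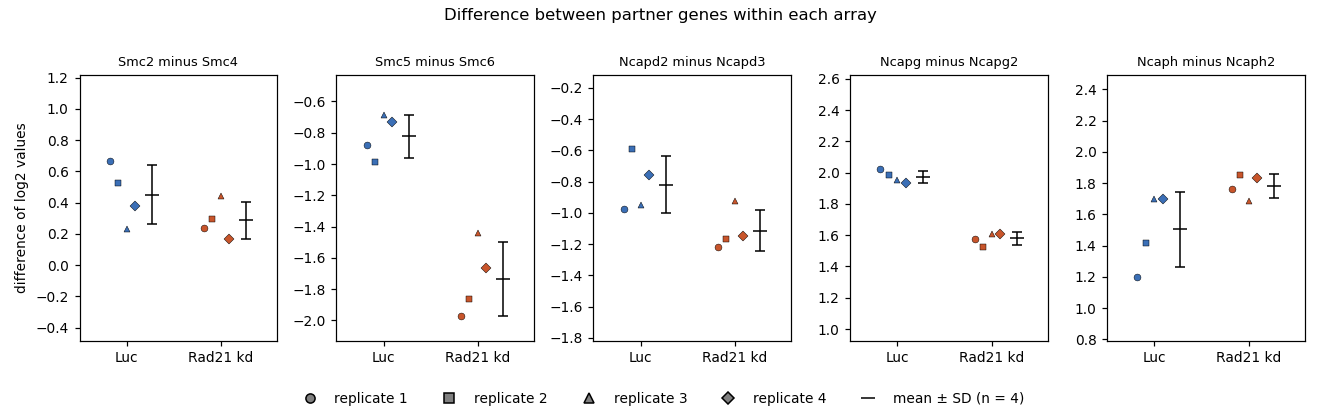
Difference of log2 values between the genes of each pair on every array (brightest probe sets), with the mean and SD of each group of 4 arrays. The groups are apart for Smc5 minus Smc6, from -0.99 to -0.69 against -1.97 to -1.44, and for Ncapg minus Ncapg2, from 1.93 to 2.02 against 1.52 to 1.61, and overlap for the other pairs.

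The other SMC proteins form a list of 5 genes, in which 1 rose, 2 fell and 2 were not called. Smchd1, an SMC protein outside the rings that silences genes on the inactive X chromosome, read 11.31, 11.15, 11.15 and 11.22 in the control and 11.60, 11.78, 11.79 and 11.78 in the knock-down. Smchd1 rose by 0.53 ± 0.06 (adjusted p = 7.48e-04), a change called within both replicate sets. The cohesin subunits Smc1a and Smc3, ring partners of RAD21, fell by 0.15 ± 0.03 (adjusted p = 0.0119) and by 0.18 ± 0.03 (adjusted p = 0.00762). These falls were called within neither replicate set alone. Rad50, of the MRN repair complex, differed by 0.08 (95% confidence interval -0.12 to 0.27), and the germ cell cohesin gene Smc1b, dim in both groups, by -0.75 (95% confidence interval -1.55 to 0.05). The Smc1b change was -0.21 within replicates 1 and 2 and -1.30 within replicates 3 and 4, where it was called (adjusted p = 0.0233).

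Regulators of condensin and its partners in chromosome assembly were measured by 14 of 15 listed genes. Of these 5 rose, 1 fell and 8 were not called, with a median change of 0.004. Top2b, the topoisomerase II that works outside mitosis, rose by 0.76 ± 0.06 (adjusted p = 3.18e-04). Mki67, which coats mitotic chromosomes, rose by 0.57 ± 0.05 (adjusted p = 5.49e-04). Kif4, a chromokinesin that binds condensin I, rose by 0.30 ± 0.06 (adjusted p = 0.0148). It changed by 0.37 within replicates 1 and 2 (adjusted p = 0.0154) and by 0.23 within replicates 3 and 4 (adjusted p = 0.115). Aurkb, the kinase of the chromosomal passenger complex, rose by 0.26 ± 0.07 (adjusted p = 0.0391) and Plk1 by 0.14 (adjusted p = 0.0325), and neither call held when single arrays were left out. The adjusted p of Aurkb rose to as much as 0.105, and its call was lost without control replicate 2, 3 or 4 or knock-down replicate 2, 3 or 4. That of Plk1 rose to as much as 0.0872, and its call was lost without any 1 of the control arrays or without knock-down replicate 1 or 2.

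Mcph1, which restrains condensin II in interphase, was the gene of this list that fell at its brightest probe set. It fell by 0.44 ± 0.07 (adjusted p = 0.00456), in both replicate sets (-0.43 and -0.45, of which the second alone was not called). Csnk2a1 was not called at its brightest probe set (-0.24, adjusted p = 0.0577). It fell by 0.56 at 1419034_at (adjusted p = 0.00139) and by 0.39 at 1419035_s_at (adjusted p = 0.0407, up to 0.108 without single arrays). Its other probe sets were not called. Top2a, the mitotic topoisomerase II, differed by 0.04 (95% confidence interval -0.02 to 0.10), and Cdk1, the kinase that activates condensin in mitosis, by -0.08 (95% confidence interval -0.17 to 0.01).

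Condensin genes are known to be expressed with the cell cycle, and lists of cell cycle genes were set beside them. Of 20 G2 and mitosis genes 7 rose, 1 fell and 12 were not called, with a median change of 0.11. Bub1, a checkpoint kinase, rose by 0.29, Ttk, another one, by 0.28, Cdc20, an activator of the anaphase-promoting complex, by 0.25, and Cenpe, a kinetochore motor, by 0.24, while the centrosome kinase Nek2 fell by 0.17. The call of Bub1 was lost without control replicate 3 or 4 or knock-down replicate 1, 2 or 4 (adjusted p up to 0.0798), and leaving out knock-down replicate 1 ended the call of Nek2 (adjusted p = 0.0506). Of 19 measured S phase genes 7 fell and 12 were not called, with a median change of -0.15. With all 8 arrays none rose by limma, none rose at an unadjusted p under 0.05 or in the plain analysis of variance, and 12 had a negative change at an unadjusted p under 0.05. Orc1, of the origin recognition complex, fell by 0.60, the origin factor Mcm10 by 0.59, Pola1, of DNA polymerase alpha, by 0.59, and the licensing factor Cdc6 by 0.39.

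The counts of these cell cycle lists were smaller within the replicate sets. Replicates 1 and 2 alone gave 3 G2 and mitosis genes that rose and 6 S phase genes that fell. With replicates 3 and 4 alone these numbers were 4 and 4. In replicates 1 and 2 alone 1 S phase gene, Tyms, was called as higher, by 0.38 (adjusted p = 0.0266), and in replicates 3 and 4 it differed by -0.16. The part of these cell cycle genes, or of the lower ESC markers, in the changes of Smc5 and Ncapg2 was not tested.

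**Figure D5:**
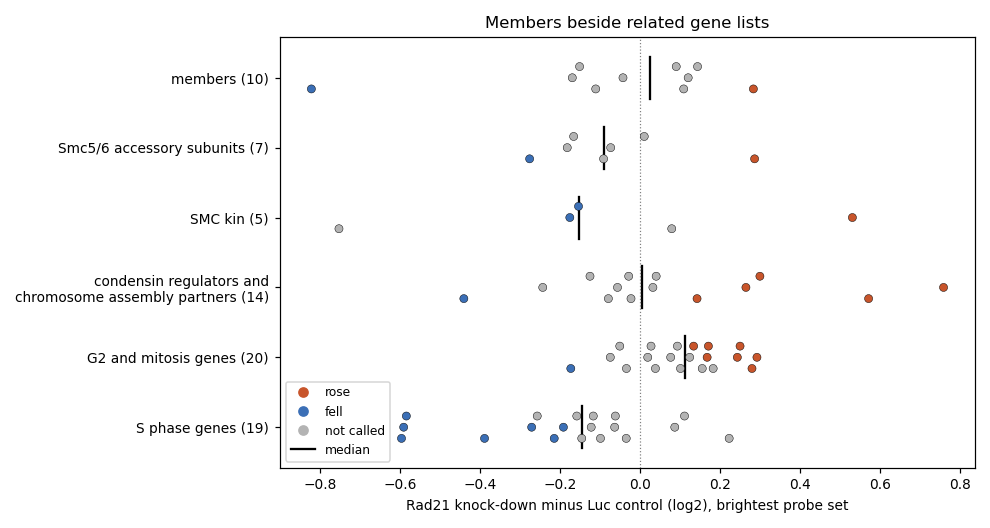
Change of each gene at its brightest probe set (knock-down minus control, log2) for the 10 members and 5 related lists, with the number of measured genes in brackets, 1 point per gene and a bar at the median. Members lie around a median of 0.02 with Smc5 apart at -0.82, G2 and mitosis genes around 0.11 and S phase genes around -0.15.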

How the data were processed

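Total RNA of 4 Rad21 knock-down and 4 Luc control cultures of R1/E cells was hybridised to Affymetrix mouse arrays. The authors deposited log2 values made with GCRMA, which corrects background by probe GC content, brings all arrays to a common distribution and summarises probe sets. The submitters' processing notes also name Partek (version 6.4). A shift of the whole transcriptome cannot be seen in such values, and dim probe sets lie on a low plateau. Scanner files were not used here.

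Of 45101 probe sets 64 controls were left out. A single symbol was given for 34945, several for 932 and none here for 9160. Matching by Entrez ID to RefSeq found 34741 and changed 0 symbols. No probe set with several symbols included a member.

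Groups were compared with limma (3.58.1, lmFit and eBayes, R 4.3.3), a moderated form of the parametric analysis of variance in the study's methods, two-sided, without block or filter. Benjamini-Hochberg adjustment ran over all 45037 probe sets, with a call at an adjusted p under 0.05. Intervals are 95% intervals of the fit. The procedure was tested on simulated data.

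Members and gene lists were chosen with earlier results of these data known. Named genes are all member and Rad21 probe sets, all Smc5/6 accessory and SMC kin genes, the markers, and from each other list up to 4 called genes per direction. Plk1, Top2a, Cdk1, Csnk2a1 and Tyms were named after their values were seen.

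Alternatives were the analysis of variance without moderation, a variance trend with robust prior, blocks for replicate number and replicate set, each set alone, probe sets with a mean of at least 4, quantile normalization, array weights, centring on bright probe sets, no _x_at or _s_at probe sets, averaged probe sets, a call at 0.01, and leaving out each array. For the interaction of group and replicate set, the variance trend, the minimum mean and quantile normalization were chosen after seeing the data.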

Additional observations from a re-analysis of the deposited data

Results flagged for a closer look

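Single arrays lay far from the other 3 of their group, by Dixon's ratio, in 5 of 60 groups of member probe sets, and chance alone gives about 1 in 20. Ncapg2 read 9.54 on Luc control replicate 1 and 9.46 to 9.47 on the other control arrays, and its rise was called without that array too. Ncapd3 1454952_s_at was flagged in both groups, with 11.67 on Luc control replicate 2 against 11.96 to 12.00 on the others and 11.95 on knock-down replicate 3 against 12.07 to 12.08. Ncapd3 1430782_at read 2.05 on Luc control replicate 3 and 1.77 to 1.78 on the other control arrays, all of them dim. Smc2 1429658_a_at read 10.33 on Luc control replicate 1 and 10.76 to 10.82 on the others.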

How the results depend on the processing

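The calls of Smc5 and Ncapg2 were kept in every fit to all 8 arrays and without each array in turn, with adjusted p from 0.00444 to 0.0125 for Smc5 and from 0.00189 to 0.0120 for Ncapg2 when an array was left out. Of 210 alternative values of the member changes 207 kept direction and call, where a change of sign without a call was not counted. The exceptions were Ncapg2 in replicates 1 and 2 alone, with 0.24 and no call, Ncaph there, with 0.24 and a call, and Smc6 without _x_at and _s_at probe sets, which turned to -0.20 and brought the members called to 3. At an adjusted p under 0.01, 3893 probe sets were called in place of 6697.

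Same-numbered arrays correlated in their deviations from the group means by 0.022, 0.133, 0.073 and 0.132, not all over 0.1, and not every array correlated best with its own number, so the numbers were not taken as pairs. With replicate number as a block (replicate block) 6224 probe sets and the same 2 members were called, Ncapg2 at an adjusted p of 0.0294. Calls in the named genes that this block did not keep were those of Smc6 1448828_at (adjusted p = 0.0999), Smc1a (0.0763), Plk1 (0.0839), Aurkb (0.122) and Nek2 (0.0703). The call of Csnk2a1 1419035_s_at was not kept either (adjusted p = 0.0636). Calls were also gained with this block, such as that of the brightest Csnk2a1 probe set (adjusted p = 0.0447). Each replicate number holds a single array of each group, so this block cannot change the group differences of the partner genes. It can change their exact p, because fewer assignments exist within replicate numbers. With the block the exact p was 0.375 for Smc2 minus Smc4. It was 0.125, the smallest that this block allows, for Smc5 minus Smc6 and for Ncapg minus Ncapg2. No pair could therefore have reached an exact p under 0.05 with the block. For Ncapd2 minus Ncapd3 and Ncaph minus Ncaph2 it was 0.25.

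Partner differences moved with the probe sets and replicates used. With the mean of all probe sets Smc5 minus Smc6 gave -0.37, Ncapd2 minus Ncapd3 -0.060, Ncapg minus Ncapg2 -0.46 and Ncaph minus Ncaph2 0.069. In replicates 1 and 2 alone Smc2 minus Smc4 gave -0.33, Ncapg minus Ncapg2 -0.45 and Ncaph minus Ncaph2 0.50, and in replicates 3 and 4 alone these gave 0.0035, -0.34 and 0.061. The difference between replicate sets called 350 probe sets by limma (5360 at an unadjusted p under 0.05) and from 0 to 315 when an array was left out, with 0 without Luc control replicate 4 (4784 unadjusted). The causes were not tested. Dim probe sets near the lowest values, such as Ncapd3 1430782_at, cannot show a fall.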
